A study of Mus musculus with 5 samples.

Results

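Plasma cells of 2 antibody classes, IgG and IgA, were compared inside each of 5 single-cell RNA libraries from unimmunized mice. A cell was placed in a class by its own heavy-chain transcripts. An IgG cell drew at least 70% of its heavy-chain constant UMIs (unique molecular identifiers, each standing for 1 captured transcript) from Ighg1, Ighg2b, Ighg2c and Ighg3 together. An IgA cell drew at least 70% from Igha, and both needed at least 10 such UMIs over Ighm, the Ighg genes, Ighe and Igha. The cells were thus chosen by their heavy-chain UMIs, so immunoglobulin genes are described and not tested. The rule took 2338 of 5476 cells (42.7%), 1262 IgG and 1076 IgA cells. Of the rest, 3083 were IgM, 2 were IgE and 53 had no class at 70%.

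All cells came from untreated male C57Bl6/N mice aged 8 to 12 weeks, and each library pooled the cells of 3 mice. CD138-high cells lacking Ly6g and CD11c had been sorted in 2 rounds and split by B220, the B cell isoform of CD45, and by uptake of 2NBDG, a glucose analog that fluoresces. The first library held B220+2NBDG- cells of the spleen, the second B220-2NBDG-, the third B220+2NBDG+ and the fourth B220-2NBDG+ cells, also splenic, and the fifth held B220-2NBDG+ cells of the bone marrow. Values are given in this order throughout. Each gate was 1 library, so the 5 libraries served as the replicates of the isotype comparison. No label says that they came from separate animals, so the p-values measure the spread between these 5 libraries only. The bone marrow was sampled in 1 library, which was also 2NBDG+, so tissue effects cannot be told apart from that library.

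A B cell that leaves the IgM state cuts out part of its heavy-chain locus and joins its variable region to a new constant region, which is class switching. Interferon-gamma is known for directing mouse B cells to IgG2c, and TGF-beta together with retinoic acid for directing them to IgA. IgA plasma cells are best known from the gut and other mucosal surfaces, where dimers held by the J chain are carried into the lumen, while IgG is secreted as a monomer into blood and lymph.

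The 5 libraries held 423, 74, 564, 117 and 84 IgG cells and 77, 135, 97, 214 and 553 IgA cells. IgG cells were therefore numerous in the B220+ libraries and IgA cells in bone marrow, where IgA made up 59% of all cells (exact 95% interval 55.7 to 62.1). IgG2c was the most frequent subclass in spleen, at 59.8%, 40.5%, 54.8% and 42.7% of the IgG cells, and made up 25% in bone marrow, where IgG2b reached 40.5% and IgG1 29.8%. The class call was rarely close to its limit. The median cell drew 96.79% (IgG) and 96.29% (IgA) of its heavy-chain UMIs from its own class. The lowest values inside were 71.4% and 72.4%, the highest outside 68.7% and 68.2%, and 9 IgG and 10 IgA cells lay between 70% and 80%.

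The non-immunoglobulin UMIs of each class were summed per library. The IgG sums held 2490692, 314751, 2608816, 496399 and 594874 UMIs, and the IgA sums 407739, 582953, 488062, 987795 and 3095568. Levels are given as CPM, UMIs of a gene scaled to a common total of these UMIs (counts per 1e6). The smallest sum sets the coarsest limit, since a count of 0 there still allows 9.53 CPM (3 UMIs; counting error only).

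Among per-cell measures, the heavy-chain UMI count was higher in IgG cells of all 5 libraries. Its median was 1386, 1300, 2489.5, 2084 and 2466 in IgG cells and 747, 841, 1949, 1842 and 2097 in IgA cells, a mean difference of 449.7 ± 153 (SD, n = 5 libraries) that is given without a test since these UMIs chose the cells. The median of all UMIs was higher in IgG cells of 4 libraries, by 1612 ± 1372 (SD, n = 5). The median non-immunoglobulin UMI count per cell was 4784, 4159, 4624, 4174 and 6682 in IgG cells and 4409, 4388, 5037, 4672 and 5633 in IgA cells, with a mean difference of 56.7 ± 651 (SD, n = 5 libraries; exact sign-flip permutation p = 0.938). At a fixed 1000 UMIs the median number of genes was 530, 515, 502, 488 and 457 in IgG cells and 534, 511, 444, 418 and 410 in IgA cells. IgG cells held more in 4 of 5 libraries, by 34.9 ± 33 genes (SD, n = 5; exact permutation p = 0.188). The light-chain share of all UMIs differed by 2.39 ± 4.57 percentage points (exact permutation p = 0.438) and the share of cycling cells by 1.23 ± 1.91 points (exact permutation p = 0.188; n = 5 for both). Adjusted over these 4 measures the p-values were 0.938, 0.376, 0.584 and 0.376, and 5 pairs cannot pass 0.05, since the smallest two-sided p they allow is 2 of 32 sign assignments. The cycling share, read at 1000 UMIs, ran from 23.6% and 22.7% of IgG and IgA cells in the B220+2NBDG- library down to 1.72% and 2.34% in splenic B220-2NBDG+, so it differed more between these libraries than between the classes.

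Among 4421 genes with enough counts to test, 293 were higher in IgG cells (6.63% of those tested) and 266 were lower (6.02%) in edgeR's quasi-likelihood test, blocked by library, at a Benjamini-Hochberg adjusted p below 0.05. Counts of list members given below are to be read beside these shares. Fold changes are IgG over IgA on the log2 scale, with the standard error (SE) of the fit. Of the 559 called genes, 183 differed at least 2-fold, 101 upward and 82 downward, and 435 had the same direction in all 5 libraries by CPM (490 after dividing CPM by the TMM factors, edgeR's correction for composition). The printed CPM carry no TMM factor, and statements on overlap refer to them. By CPM the 5 IgG values all lay above the 5 IgA values for 164 of the higher genes (244 of all tested, 5.52%), and below them for 53 of the lower genes (53 of all tested, 1.2%). With the TMM factors these were 112 of the higher genes (126 of all tested, 2.85%) and 106 of the lower genes (again 126 of all tested). The median change over all genes tested was -0.004. Without the library block 104 and 92 genes were called. When counts were scaled by library totals alone, without TMM factors, 511 and 134 genes were called. That scaling moved the median of all genes by 0.168, and the higher share of the calls rose from 52.4% to 79.2%.

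**Figure D1:**
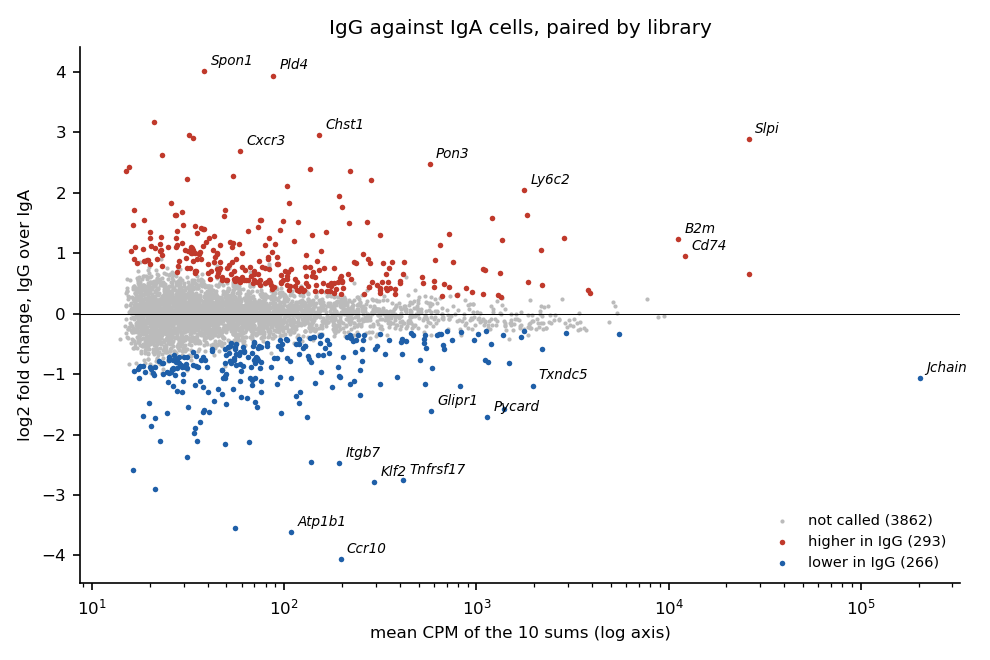
Each point is 1 of the 4421 tested genes, with its mean CPM over the 10 sums on the x axis (log scale) and the log2 fold change of IgG over IgA cells on the y axis. The 293 genes called higher and the 266 called lower in IgG cells are coloured, and Slpi and Jchain stand at the high-abundance end on opposite sides.

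Transcripts of mucosal homing receptors were higher in IgA cells. Ccr10, the receptor for the epithelial chemokines CCL27 and CCL28, stood at 255, 444, 465, 330.0 and 357 CPM in IgA cells and 31.3, 19.1, 19.9, 14.1 and 30.3 CPM in IgG cells. Every IgA value lay far above every IgG value, in bone marrow as in spleen. Its log2 fold change of -4.06 (SE 0.21, adjusted p = 3.15e-09) was the steepest fall of all called genes that kept 1 direction in all libraries. The gene lies at chr11:101172997-101175443 (GRCm38). Itgb7, the beta chain that pairs with alpha4 or alphaE integrin to hold lymphocytes in the gut, was at 596, 576, 215, 137 and 105 CPM in IgA cells and 41.8, 89, 51, 44.3 and 74 CPM in IgG cells (log2 -2.47, SE 0.30, adjusted p = 3.91e-05). The IgA level of Itgb7 fell from the 2NBDG- libraries to bone marrow while the IgG level stayed in a narrow range, yet the groups did not overlap. Its partner Itga4 was not called (log2 -0.21, SE 0.21, adjusted p = 0.604), nor was Itgb1, the other beta chain of alpha4 (0.62, SE 0.21, adjusted p = 0.0648). Ccr9, the receptor of the small-intestinal chemokine CCL25, was below the count filter and was not tested. It read 41.7, 34.3, 8.2, 43.5 and 59.8 CPM in IgA cells against 3.61, 3.18, 0, 8.06 and 3.36 CPM in IgG cells.

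An interferon-linked chemokine receptor was higher in IgG cells. Cxcr3, which answers the interferon-induced chemokines CXCL9 and CXCL10, was at 175, 102, 166, 56.4 and 16.8 CPM in IgG cells and 27, 3.43, 38.9, 4.05 and 2.26 CPM in IgA cells. Both classes had more Cxcr3 in the B220+ libraries, and IgG was above IgA within every library although the 2 ranges overlapped. The log2 fold change was 2.69 (SE 0.27, adjusted p = 6.38e-06). Of 22 chemokine and homing receptors 3 passed the count filter, with Cxcr3 higher and Ccr10 and S1pr4 lower in IgG cells. S1pr4, a sphingosine phosphate receptor, was called at -1.33 (SE 0.32, adjusted p = 0.0117), and without the B220+2NBDG- library it was -0.75 (adjusted p = 0.201). Cd69, which pulls another sphingosine phosphate receptor off the surface and holds cells in tissue, was lower in IgG cells by -2.38 (SE 0.29, adjusted p = 4.06e-05). Selplg, the P-selectin ligand, was lower by -0.58 (SE 0.11, adjusted p = 0.00189).

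Receptors of plasma cell survival factors differed in both directions. Tnfrsf17 encodes BCMA, which receives the survival factors APRIL and BAFF, and was at 966, 1137, 489.7, 452 and 487 CPM in IgA cells and 54.2, 92.1, 75.1, 141 and 250.5 CPM in IgG cells. The IgA values all exceeded the IgG values, and the gap was narrowest in bone marrow, where the IgG level was highest. The log2 fold change was -2.75 (SE 0.31, adjusted p = 2.16e-05). Tnfrsf13b (TACI), another receptor of both factors, was lower in IgG cells by -0.67 (SE 0.09, adjusted p = 1.20e-04). Tnfrsf13c, the BAFF receptor of mature B cells, went the other way at 0.94 (SE 0.17, adjusted p = 0.00108). Il2rg, the shared chain of several cytokine receptors, was lower at -1.46 (SE 0.19, adjusted p = 7.14e-05), and Il13ra1 was higher at 1.14 (SE 0.21, adjusted p = 0.00133). Of 17 tested Bcl2 family and survival genes 1 was higher and 3 were lower (6.63% and 6.02% over all genes tested). The list median was -0.08. The pro-apoptotic Bcl2l11 (Bim) was the higher one at 1.72 (SE 0.34, adjusted p = 0.00297), and at 2.57 without the B220+2NBDG- library. The lower ones each lost their call when 1 library was left out: Bcl2 (-1.24) without B220+2NBDG+ (-0.80, adjusted p = 0.0592), Birc3 (-0.96) without the same library (-0.80, adjusted p = 0.0679), and Relb (-1.48) without B220+2NBDG- (-1.03, adjusted p = 0.0747) or without B220-2NBDG- (-1.30, adjusted p = 0.067).

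The other leading IgA genes had varied roles. Atp1b1, the beta subunit of the sodium pump, was at 248, 513, 121, 74.9 and 51.7 CPM in IgA cells and 24.1, 28.6, 11.9, 14.1 and 0 CPM in IgG cells (log2 -3.62, SE 0.21, adjusted p = 8.17e-09). The IgG value of 0 in bone marrow allows up to 5.04 CPM. Both classes held less Atp1b1 in the 2NBDG+ libraries and least in bone marrow, and the classes did not overlap. Gm19585, a predicted gene, was at 66.2, 120.1, 98.3, 97.2 and 121 CPM in IgA cells and 5.22 to 13.4 CPM in IgG cells (-3.54, SE 0.18, adjusted p = 3.15e-09). Samsn1, an adaptor that restrains B cell receptor signals, differed by -2.90 and Osbpl3, an oxysterol-binding protein, by -2.59. Gimap7 (-2.15), Fam69a (-2.13), Cd200 (-2.11), Sms (-2.10), Plek (-1.97) and Ets1 (-1.89) completed the 15 steepest. These are respectively a small GTPase of lymphocytes, an ER membrane kinase-like protein, an inhibitory ligand, spermine synthase, a cytoskeletal kinase substrate and a transcription factor that restrains plasma cell formation. Plek was -1.33 without the B220+2NBDG- library, and was not called without the library block (-1.76, adjusted p = 0.128).

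**Figure D2:**
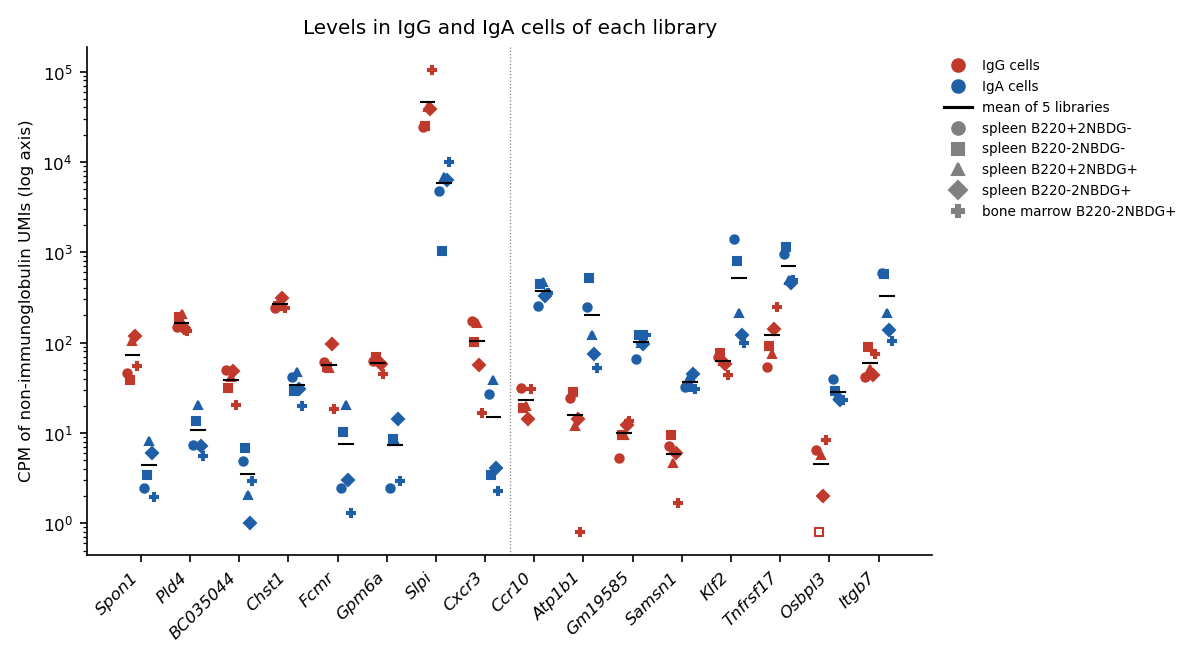
CPM (log axis) of the 8 genes with the steepest rise (left of the dotted line) and the 8 with the steepest fall (right) in IgG cells, with 1 marker per library and class and a bar at the mean of the 5 libraries. Open markers at the foot of the axis had 0 UMIs (Osbpl3 in IgG cells of splenic B220-2NBDG- and Atp1b1 in IgG cells of bone marrow); Slpi and Ccr10 show separated classes, while Cxcr3 overlaps between libraries.

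IgG cells were led by a secreted inhibitor. Slpi, which blocks neutrophil elastase and related proteases, was at 24107, 25080.1, 40349, 38284 and 103751 CPM in IgG cells and 4758, 1034, 6837, 6347 and 9999 CPM in IgA cells. Slpi lies at chr2:164354070-164389095. Every IgG value exceeded every IgA value, and both classes peaked in bone marrow. The log2 fold change was 2.89 (SE 0.26, adjusted p = 1.91e-06). The subclasses did not share it evenly: IgG3 cells held 8647 to 14632 CPM in 4 libraries, and IgG2c cells 27657 to 129753 CPM in 5. Bone marrow, where both classes peaked, held 4 IgG3 cells and gave no IgG3 sum, so the 2 ranges cover unlike sets of libraries. Prg2, the eosinophil major basic protein, was also higher, at 1.58 (SE 0.31, adjusted p = 0.00236). Of 10 tested genes for secreted inhibitors and enzymes 4 were higher and 2 lower. They were 2 and 1 without splenic B220-2NBDG+, and 1 gene was called lower without any other splenic library.

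The steepest rises in IgG cells were in less abundant genes. Spon1, which encodes the matrix protein F-spondin, was at 45.8, 38.1, 105, 117 and 55.5 CPM in IgG cells and 2.45, 3.43, 8.2, 6.07 and 1.94 CPM in IgA cells (log2 4.01, SE 0.26, adjusted p = 3.63e-08). Pld4, an endosomal nuclease that degrades single-stranded nucleic acid, was at 149, 194, 205, 145 and 134 CPM in IgG cells and 7.36, 13.7, 20.5, 7.09 and 5.49 CPM in IgA cells (3.94, SE 0.20, adjusted p = 3.15e-09). For both genes the classes were apart in every library and did not overlap. In B220+2NBDG- and splenic B220-2NBDG- the IgA value of Spon1 lay below the 7.36 and 5.15 CPM that stand for 3 UMIs. Chst1, a carbohydrate sulfotransferase, was at 241, 254, 295, 314 and 244 CPM in IgG cells and 41.7, 29.2, 47.1, 30.4 and 20 CPM in IgA cells (2.96, SE 0.15, adjusted p = 3.15e-09). The lactonase gene Pon3 was at 782, 1001, 1248, 999 and 851 CPM against 174, 141, 287, 119 and 104 CPM (2.48, SE 0.14, adjusted p = 8.17e-09). Neither gene overlapped between classes. The remaining leaders were the predicted gene BC035044 (3.17), the IgM Fc receptor gene Fcmr (2.95, or 3.67 without B220+2NBDG+), the neuronal membrane glycoprotein gene Gpm6a (2.90), the G protein-coupled receptor gene Gpr18 (2.62), the hepatic lipase gene Lipc (2.42), the B cell scaffold gene Bank1 (2.36), Oosp1 (2.36), the muscle phosphoglycerate mutase gene Pgam2 (2.28) and Scimp (2.23), an adaptor of MHC class II signalling. Lipc was 3.16 and Bank1 1.78 without bone marrow, and Scimp was 2.95 without B220+2NBDG-. Pgam2 was not called in edgeR without the library block (2.06, adjusted p = 0.0779). Some IgA levels among these leaders rested on few UMIs. Bank1 had 19 UMIs over all IgA sums. BC035044 was found in 1, 4, 1, 1 and 9 IgA cells, and Fcmr in 1, 4, 5, 3 and 4.

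The leading genes did not belong to a single IgG subclass. IgG1, IgG2b, IgG2c and IgG3 cells were each summed where a library held at least 10 of them, which gave 17 sums. Of the 15 leading higher genes 9 stood above the IgA value of the same library in all 17 sums, and over the 15 genes 246 of 255 sums did. Of the 15 leading lower genes 12 stood below the IgA value in all 17, and 252 of 255 sums did. Ccr10 stayed between 0 and 36.6 CPM in every subclass sum, against 255 CPM in the lowest IgA sum. These shares describe genes already chosen for the pooled IgG difference and carry no test.

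Transcripts of antigen presentation genes were higher in IgG cells, in both MHC classes. MHC class II molecules present peptides from the endosome and are lost as B cells become plasma cells; MHC class I molecules present peptides cut by the proteasome on all nucleated cells. Of 7 tested class II genes 6 were higher in IgG cells and 0 lower, with a median of 0.95. Of 17 tested genes of class I and peptide loading 11 were higher and 0 lower, with a median of 0.62. B2m, the light chain of class I, was at 12277, 13629.8, 19668, 18876 and 16866 CPM in IgG cells and 4719, 5470.4, 7542, 7595 and 5415 CPM in IgA cells (log2 1.24, SE 0.10, adjusted p = 4.72e-07). Every IgG value of B2m lay above every IgA value, and the gates changed it little. The class I heavy chains H2-K1 (1.22, SE 0.10, adjusted p = 1.04e-06) and H2-D1 (1.05, SE 0.10, adjusted p = 3.31e-06) differed by as much. H2-Q7 (1.77), H2-Q6 (1.40) and H2-Q4 (1.16) were called too, but these genes are near-identical copies and reads may be shared among them. The immunoproteasome subunits Psmb8 (0.85) and Psmb9 (0.58) were higher, and the constitutive proteasome list had 0 higher and 1 lower of 36 tested.

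Class II differed by gate as well as by isotype. H2-Aa, the alpha chain of I-A, was at 1024, 388, 709.5, 179 and 31.9 CPM in IgG cells and 370.3, 165, 215, 41.5 and 23.3 CPM in IgA cells. B220+ libraries were highest and bone marrow lowest in both classes, and IgG was above IgA within each library (1.31, SE 0.14, adjusted p = 1.31e-05). The beta chain H2-Ab1 was higher by 0.67 (SE 0.14, adjusted p = 0.00519) although bone marrow had 348 CPM in IgG and 360.2 CPM in IgA cells. Cd74, the invariant chain that guards the groove, was at 15408, 14164, 18516, 16718 and 18728 CPM in IgG cells and 7593, 6724, 8687, 7962 and 7446 CPM in IgA cells (0.95, SE 0.10, adjusted p = 7.56e-06). Cd74 was not lower in bone marrow, where H2-Aa was, and its classes did not overlap. H2-DMb1 (1.11), H2-Ob (1.01) and H2-DMa (0.77), which edit or restrain peptide loading, were also called. H2-DMa was 0.71 (adjusted p = 0.0536) without B220+2NBDG-. Without the library block H2-Aa, H2-Ab1, H2-DMa and H2-Ob lost their calls, with adjusted p between 0.183 and 0.469.

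The promoters of H2-Aa and B2m are shown because the MHC genes moved together in both classes of molecule. Each run is the 250 bases before the RefSeq start site (GRCm38.p6), read along the gene. Capitals mark ATTGG, the reverse of the CCAAT letters of the Y box that NF-Y binds in MHC class II promoters, and in B2m also GAAA and GAAA parted by any pair of bases, the letters of an interferon-stimulated element. Both were searched on both strands, as was CACCC below. H2-Aa lies on the minus strand, chr17:34287824-34288073, and B2m on the plus strand, chr2:122147437-122147686.
H2-Aa: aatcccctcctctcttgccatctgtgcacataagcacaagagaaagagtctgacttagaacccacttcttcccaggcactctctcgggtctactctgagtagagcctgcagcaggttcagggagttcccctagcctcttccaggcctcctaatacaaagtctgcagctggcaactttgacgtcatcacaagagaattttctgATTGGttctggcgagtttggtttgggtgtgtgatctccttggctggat
B2m: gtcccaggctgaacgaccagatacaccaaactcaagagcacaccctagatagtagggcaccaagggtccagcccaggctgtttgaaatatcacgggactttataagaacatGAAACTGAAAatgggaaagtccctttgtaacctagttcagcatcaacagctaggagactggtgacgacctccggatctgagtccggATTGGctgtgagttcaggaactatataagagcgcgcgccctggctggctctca
ATTGG ended 44 bases before the start in H2-Aa and 49 bases before it in B2m. It was found in 6 of 7 class II and 12 of 15 class I promoters. It was in 34.2% of 27025 promoters of the same length and 37.9% of those of all tested genes. Among called genes it was in 41.2% of promoters of the higher and 35.1% of those of the lower genes. The interferon letters were in 3 of 15 class I promoters, 3.06% of all promoters and 2.93% of those of all tested genes. They were in 6.01% of promoters of the higher and 1.95% of those of the lower genes. These matches are descriptions and overlapped no other searched motif in the promoters shown.

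**Figure D3:**
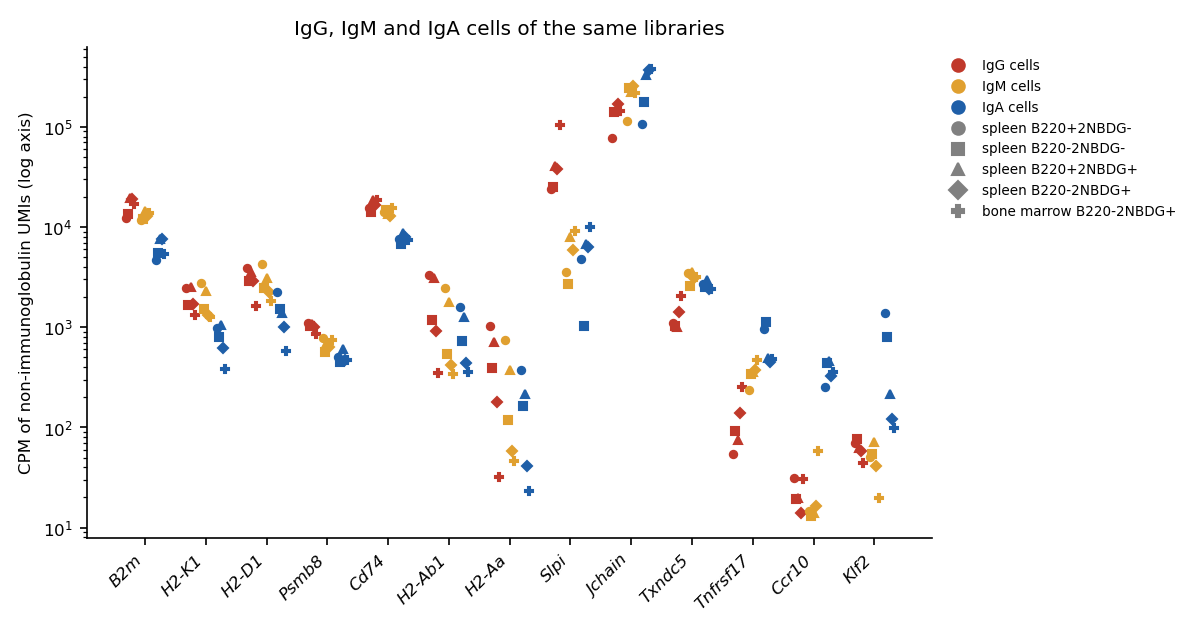
CPM (log axis) of 13 genes in IgG, IgM and IgA cells of the same 5 libraries, with 1 marker shape per library. IgM cells stand beside IgG cells for B2m, Cd74, Ccr10 and Klf2, and beside IgA cells for Slpi and Txndc5.

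IgM cells of the same libraries give a point of reference. B2m was at 11670.0, 11945, 14387, 12811 and 13746 CPM in IgM cells, between the classes and nearer to IgG. Over all called genes, IgM lay nearer to IgG than to IgA for 222 of the 293 higher genes (75.8%) and 166 of the 266 lower genes (62.4%). Slpi was an exception, at 3585, 2680.2, 7884, 5921 and 9194 CPM in IgM cells, close to IgA. IgM lay between the classes for 221 of the higher genes (75.4%) and 107 of the lower genes (40.2%). These positions are by CPM without TMM factors, are not given over all tested genes, and were not tested.

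Interferon-related genes gave mixed counts. Of 18 tested interferon-induced genes 6 were higher and 2 lower (6.63% and 6.02% over all genes tested), with a median of 0.14. Of 8 tested genes of the interferon-gamma response and IgG2 switching 2 were higher and 0 lower. The antiviral exonuclease gene Isg20 (0.86), the nucleic acid sensor gene Zbp1 (0.69) and the GTPase gene Igtp (1.05) were higher, and Ifi27l2a was lower (-1.17). Bst2, which tethers virus particles, was called lower at -0.47 (adjusted p = 0.0344), and was not called without splenic B220-2NBDG+ (-0.34, adjusted p = 0.189), without bone marrow (-0.36, adjusted p = 0.133), without B220-2NBDG- (-0.52, adjusted p = 0.0514) or without B220+2NBDG+ (-0.50, adjusted p = 0.0707). Tbx21, the T-bet gene that directs IgG2 switching, held 0 to 4.03 CPM in IgG and 0 to 2.45 CPM in IgA sums, below the filter. Of 5 tested TGF-beta and IgA switching genes 3 were lower, Tnfrsf13b among them. The calls of Tgfb1 (-0.77) and Tgfbr1 (-0.75) were each lost without B220+2NBDG- (-0.73 for both, adjusted p = 0.0862 and 0.0889), and again without 2 and 3 other libraries. Runx2, which acts in IgA switching with Runx3, was below the filter at 14.7, 25.7, 32.8, 24.3 and 22.3 CPM in IgA cells and 0, 0, 0, 2.01 and 3.36 CPM in IgG cells; Runx3 was 12.3 to 18.4 CPM and 8.82 to 20.1 CPM.

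Ly6 surface proteins, small lipid-anchored antigens of lymphocytes, were higher in IgG cells for 4 of 7 tested and lower for 0, with a median of 1.36. Ly6c2 was at 554, 934, 1434, 3979 and 8657 CPM in IgG cells and 505, 412, 420.0, 328 and 487 CPM in IgA cells (2.05, SE 0.41, adjusted p = 0.00301). The IgA level varied little across libraries, while the IgG level was lowest in B220+2NBDG- and highest in bone marrow. Ly6a, the Sca-1 gene, was at 2426, 2091, 1830.3, 2988 and 4613 CPM in IgG cells and 383, 360.2, 871, 1113 and 1656 CPM in IgA cells (1.63, SE 0.21, adjusted p = 6.69e-05). Both classes were highest in bone marrow, and the values did not overlap by CPM but did once divided by the TMM factors. Ly6k (1.36) and the complement inhibitor gene Cd59a (1.45) were the other called members. Ly6 genes are a tandem family, and reads of close copies may be shared.

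The secretory apparatus differed in single parts and not throughout. Jchain, which joins IgA into dimers and IgM into pentamers, was at 76657, 141619.9, 143968, 167989.9 and 143878 CPM in IgG cells and 107083, 177817, 330411, 367553 and 375266 CPM in IgA cells. It was the most abundant called gene, and the IgG cells, whose antibody does not use it, still held it at a high level. The fold change was -1.07 (SE 0.17, adjusted p = 4.04e-04), with an adjusted p of 0.474 in DESeq2. Txndc5, a disulfide isomerase of the endoplasmic reticulum, was at 1094, 1039, 1017, 1426 and 2037 CPM in IgG cells and 2673, 2516, 2983, 2406 and 2411 CPM in IgA cells (-1.19, SE 0.15, adjusted p = 4.57e-05). The values did not overlap, and the gap was smallest in bone marrow. The oxidase Ero1lb (0.77, SE 0.11, adjusted p = 2.28e-04) and the prolyl isomerase Fkbp11 (0.61, SE 0.10, adjusted p = 8.72e-04) were higher in IgG cells. Derl3, of the degradation channel, was lower at -0.52 (SE 0.10, adjusted p = 0.00196). Of 40 tested ER folding genes 8 were higher and 3 lower (5 and 2 without B220+2NBDG- or without splenic B220-2NBDG+), and of 51 translocation and vesicle genes 7 were higher and 0 lower, a share (7 of 51) to be read beside the background of 6.63%. Leaving out 1 library brought the 7 to between 1 and 7.

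Enzymes that finish antibody glycans differed in opposite directions. Fut8, which adds the core fucose of N-glycans, was at 349, 442, 382, 351 and 261 CPM in IgG cells and 164, 187, 172, 149.8 and 123 CPM in IgA cells (0.99, SE 0.10, adjusted p = 5.36e-06). St6gal1, which adds terminal sialic acid, was at 226, 184, 232, 193 and 156 CPM in IgG cells and 235, 259, 307, 280.4 and 272 CPM in IgA cells (-0.63, SE 0.12, adjusted p = 0.00204). Fut8 values did not overlap between the classes, while St6gal1 values were apart by a small margin as CPM and overlapped once divided by the TMM factors. Of 36 tested glycosylation genes 6 were higher and 1 lower, and leaving out 1 library brought the 6 to between 3 (without splenic B220-2NBDG-) and 6.

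Lysosomal genes were called in both directions, 10 higher and 5 lower of 35 tested, with a median of 0.05. The lower calls were the less stable: between 1 (without bone marrow) and 4 were made with 1 library left out, and 0 without the library block, against 8 to 10 and 5 higher calls. The proteases Ctss (1.32, SE 0.11, adjusted p = 4.72e-07) and Lgmn (1.5, SE 0.12, adjusted p = 4.72e-07), both known for processing antigen and invariant chain, were higher in IgG cells. Ctsz (0.75) and the cholesterol carrier gene Npc2 (0.66) were higher, and Ctsw, a cathepsin of cytotoxic lymphocytes, was lower (-1.72, SE 0.41, adjusted p = 0.00971). Selenop, the selenium carrier, was higher by 1.83 (SE 0.15, adjusted p = 4.72e-07).

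Of 15 tested B cell identity genes 7 were higher in IgG cells and 2 lower (6.63% and 6.02% over all genes tested). Ms4a1 (CD20) was at 202, 200.2, 148, 145 and 149.6 CPM in IgG cells and 41.7, 34.3, 73.8, 27.3 and 16.5 CPM in IgA cells (2.12, SE 0.24, adjusted p = 1.97e-05), with no overlap. Fcrla (1.52), Ltb (1.61) and Cd24a (0.85) were higher too, while Ebf1, an early B cell factor, and Vpreb3 were lower (-0.95 and -1.04). Pax5, which defines the B cell state, had 0 UMIs in all 10 sums. Of 21 plasma cell identity genes 5 were higher and 5 lower, with 3 higher without splenic B220-2NBDG+. Sdc1, which encodes the CD138 used in the sort, was not called (-0.01, SE 0.10, adjusted p = 0.975), nor were Prdm1 (-0.56, adjusted p = 0.0581, but -0.69 and called at 0.0363 without B220+2NBDG+) and Irf4 (-0.16, adjusted p = 0.616). Xbp1 was called at 0.35 (SE 0.10, adjusted p = 0.0273) but not without B220+2NBDG- (0.27, adjusted p = 0.155) or without B220-2NBDG+ (0.38, adjusted p = 0.0777). Among transcription factors of B and plasma cells 2 of 19 were higher and 5 lower (1 and 3 without B220+2NBDG- or without splenic B220-2NBDG+), with Ets1 as the steepest fall and Zbtb20, which supports plasma cell survival, higher at 0.51 (SE 0.11, adjusted p = 0.00483).

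Immediate early genes, which are induced within minutes of a stimulus and also by cell handling, were higher for 7 of 18 tested and lower for 2. Btg2 (0.84, SE 0.11, adjusted p = 5.54e-05), Btg1 (1.55), Egr1 (1.71) and Dusp1 (1.10) were among the higher ones. Jun was called at 1.13 (adjusted p = 0.0104), and at 0.91 (adjusted p = 0.052) without B220-2NBDG-. Fos was called at 0.86 (adjusted p = 0.035), and lost the call without B220+2NBDG- (0.59, adjusted p = 0.119), B220-2NBDG- (0.71, adjusted p = 0.13) or B220+2NBDG+ (0.82, adjusted p = 0.108). Handling was shared by both classes of a library and was not tested.

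Energy metabolism lists were called near or below the shares of all genes tested, 6.63% higher and 6.02% lower. Of 16 glycolysis genes 1 was higher and 0 lower, of 74 nuclear oxidative phosphorylation genes 0 were higher and 1 lower, of 29 citric acid cycle genes 2 and 2 (1 and 0 without either 2NBDG- library), and of 12 mitochondrially encoded genes 0 and 0. Ndufa4, a subunit of the last respiratory complex, was the lower one at -0.80 (SE 0.12, adjusted p = 3.12e-04). Mpc2, a subunit of the mitochondrial pyruvate carrier, was higher at 0.63 (SE 0.10, adjusted p = 3.83e-04). In the stress response and amino acid list 1 of 32 was higher and 4 were lower, including asparagine synthetase, Asns (-1.17, SE 0.13, adjusted p = 1.69e-05). Cell cycle genes gave 0 and 0 of 12.

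Lipid carrier and Fc receptor genes differed between gates as well as between classes. Apoe, the lipid carrier apolipoprotein E, was at 932, 25.4, 266, 6.04 and 6.72 CPM in IgG cells and 29.4, 18.9, 55.3, 9.11 and 6.78 CPM in IgA cells. IgG cells were far above IgA cells in the B220+ libraries, and the classes were close in splenic B220-2NBDG+ and bone marrow. In the interaction tests below, Apoe was called for 2NBDG (-2.59) and not for B220. Its isotype call (2.40, SE 0.49, adjusted p = 0.00338) was 1.20 (adjusted p = 0.0297) without B220+2NBDG- and 1.16 (adjusted p = 0.681) in DESeq2. Fcer1g, the shared signalling chain of Fc receptors, was at 91.5, 60.4, 112, 94.7 and 23.5 CPM in IgG cells and 29.4, 20.6, 47.1, 23.3 and 17.8 CPM in IgA cells (1.18, SE 0.21, adjusted p = 9.30e-04). Fcgr2b, the inhibitory IgG Fc receptor, was not called (0.19, SE 0.26, adjusted p = 0.731), and its bone marrow ratio went the other way. The membrane gene Tmem176b was lower in IgG cells of every library (-0.76, SE 0.13, adjusted p = 0.00106), while both classes held most in 2NBDG+ B220- libraries. The IgA value of Tmem176b was 930.4 CPM in splenic B220-2NBDG+ and 924 CPM in bone marrow.

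**Figure D4:**
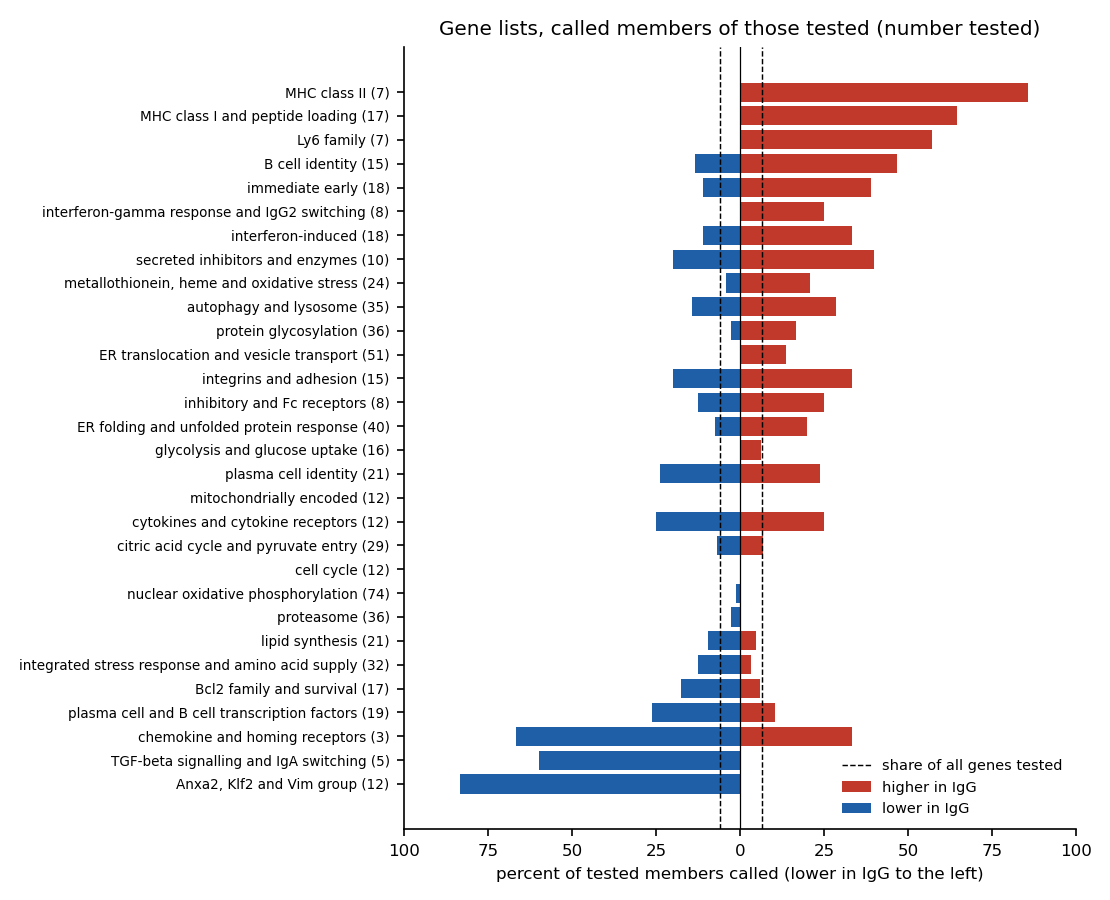
Percent of tested members of each of 30 gene lists called higher (right) or lower (left) in IgG cells, with the number tested in brackets and dashed lines at the shares of all tested genes, 6.63% and 6.02%. MHC class II, MHC class I and the Ly6 family stand to the right, and the Anxa2, Klf2 and Vim group to the left. The lists were chosen with earlier results of these data known.

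A migratory and cytoskeletal group was lower in IgG cells, and mostly so in 2 libraries. It holds genes of cell movement and membrane organisation such as Klf2, Vim, Crip1 and the S100a10 partner of annexin A2. Of its 20 genes 12 passed the count filter, 10 were lower and 0 higher, with a median of -1.14. Like the other lists it was chosen with earlier results of these data known, so this count is a description. Klf2, a transcription factor of lymphocyte quiescence and traffic, was at 1391, 796, 215, 120.5 and 99.8 CPM in IgA cells and 69.9, 76.3, 62.9, 58.4 and 43.7 CPM in IgG cells. IgA cells of the 2 2NBDG- libraries were high, those of the 2NBDG+ libraries were lower, and IgG cells were low throughout. The fold change was -2.79 (SE 0.34, adjusted p = 4.12e-05), and -2.11 without B220+2NBDG-. Vim, the intermediate filament vimentin, was at 738, 359, 67.6, 17.2 and 8.4 CPM in IgA cells and 82.3, 50.8, 24.1, 14.1 and 13.4 CPM in IgG cells. In bone marrow its order was reversed, and the call (-2.46, SE 0.31, adjusted p = 5.54e-05) was -1.81 without B220+2NBDG- and -1.68 (adjusted p = 0.102) in DESeq2. Anxa2 itself was below the filter, at 1089, 638, 109, 2.02 and 1.94 CPM in IgA cells and 14.9, 12.7, 8.82, 6.04 and 0 CPM in IgG cells.

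A sum cannot tell a high level in some cells from a moderate level in all, so the group was also counted per cell. At 1000 UMIs the median IgA cell held 13, 8, 2, 2 and 1 UMIs of the 20 genes, and the median IgG cell 2, 2, 2, 1 and 1. In the 2NBDG- libraries the middle range of IgA cells was wide, from 4 to 20.5 UMIs (quartiles) in B220+ and from 4 to 15 in B220- cells. The IgA cells there were therefore uneven, with some near the level of IgG cells. Without the library block 3 of the 10 calls were made.

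The promoters of Itgb7 and Vim are shown because these genes fell with Klf2, whose protein family binds CACCC. Capitals mark CACCC or its reverse, GGGTG. Itgb7 lies on the minus strand, chr15:102231936-102232185, and Vim on the plus strand, chr2:13574061-13574310.
Itgb7: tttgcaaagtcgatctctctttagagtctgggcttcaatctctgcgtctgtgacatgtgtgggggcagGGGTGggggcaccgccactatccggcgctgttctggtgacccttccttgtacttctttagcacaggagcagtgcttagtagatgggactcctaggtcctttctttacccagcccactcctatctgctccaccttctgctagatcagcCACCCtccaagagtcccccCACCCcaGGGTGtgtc
Vim: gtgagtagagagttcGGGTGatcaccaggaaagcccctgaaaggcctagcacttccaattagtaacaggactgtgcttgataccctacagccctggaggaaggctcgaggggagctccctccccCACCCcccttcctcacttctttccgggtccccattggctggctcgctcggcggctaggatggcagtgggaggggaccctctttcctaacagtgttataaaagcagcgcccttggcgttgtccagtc
Itgb7 held 4 matches and Vim 2. CACCC was frequent everywhere: it was in 51.3% of all promoters and 54.9% of those of all tested genes. It was in 59.7% of those of the higher genes, 58.5% of those of the lower genes and 10 of 16 promoters of the group. The letters therefore did not set the group apart in these windows.

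Whether the isotype difference itself changed with 2NBDG uptake was tested by an interaction term. In the 3 2NBDG+ libraries it was larger (more positive) for 53 genes (1.2% of 4421) and smaller for 31 (0.701%), and 46 of the 84 were also called for isotype. For 74 of the 84 genes the IgA level changed more between 2NBDG- and 2NBDG+ libraries than the IgG level. These levels are CPM without TMM factors, and the same share over all tested genes is not given here. The IgA factors ran from 1.16 and 1.08 in 2NBDG- to 0.903, 0.84 and 0.789 in 2NBDG+ libraries. The IgG factors ran from 1.19 and 1.11 to 1.09, 1.04 and 0.886, so the choice of scaling affects IgA levels more. All 8 called members of the Anxa2, Klf2 and Vim group were among the 74. These counts leaned on the 2NBDG- pair: without B220+2NBDG- they were 7 and 10, and without B220-2NBDG- 28 and 14. Each of these fits leaves 1 library with low 2NBDG, which is assumed to vary like the others. The 84 genes kept 63 calls without bone marrow.

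Pycard, the ASC adaptor of inflammasomes, had the smallest p. It was at 3568, 3522, 1108, 559 and 402 CPM in IgA cells and 411, 426, 649.7, 437 and 298 CPM in IgG cells. The IgA cells of the 2NBDG- libraries were the highest, and the interaction was 2.34 (adjusted p = 1.14e-09). Crip1, a LIM-domain protein, was at 4819, 5383, 717, 398 and 232 CPM in IgA cells and 754, 505, 419, 477 and 195 CPM in IgG cells (interaction 2.52, adjusted p = 2.95e-08). In splenic B220-2NBDG+ the IgG value was the higher one by CPM, though not once divided by the TMM factors. Klf2 had an interaction of 2.42 (adjusted p = 9.52e-07).

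Other genes were depleted, not enriched, in the IgA cells of the 2NBDG- libraries. Grn, the lysosomal growth factor progranulin, was at 22.1, 22.3, 121, 142 and 141 CPM in IgA cells and 334, 537, 582, 529.8 and 412 CPM in IgG cells. The classes were apart in every library and furthest apart in the 2NBDG- ones (interaction -2.66, adjusted p = 1.42e-06). Cyp4f18, which breaks down leukotriene B4, was at 17.2, 27.4, 77.9, 74.9 and 169 CPM in IgA cells and 131, 181, 92.4, 119 and 183 CPM in IgG cells (interaction -2.69, adjusted p = 1.61e-06). It was not called for isotype overall (0.74, adjusted p = 0.137). Jun (-1.88, adjusted p = 3.45e-05) and Ly6a (-1.47, adjusted p = 1.06e-05) had smaller isotype differences in 2NBDG+ libraries. Ly6c2 was the reverse case, with an interaction of 2.42 (adjusted p = 3.17e-04) in which the IgG level differed more between the libraries than the IgA level.

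**Figure D5:**
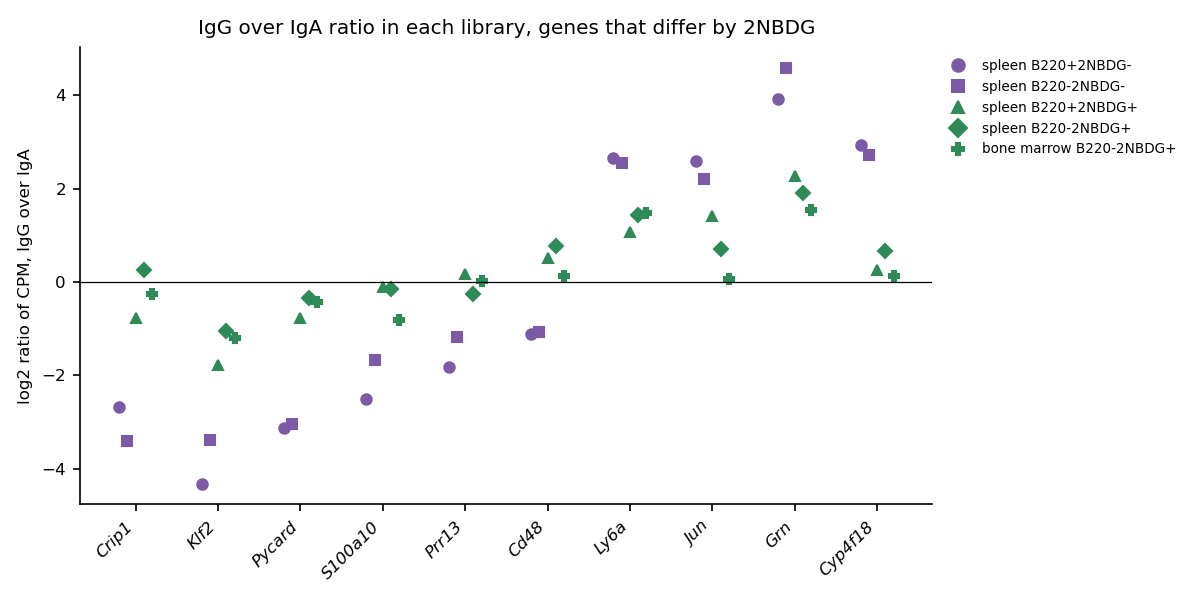
Log2 ratio of CPM, IgG over IgA, in each library for the 10 genes with the smallest p for the 2NBDG interaction, with 2NBDG- libraries in purple and 2NBDG+ libraries in green. For each gene the 2NBDG- pair lies on 1 side of the 2NBDG+ libraries, below them for Crip1, Klf2 and Pycard and above them for Grn and Cyp4f18.

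No gene had an isotype difference that changed with B220 at an adjusted p below 0.05 (0 of 4421, 0%). The smallest adjusted p was 0.207 in edgeR, 188 genes had an unadjusted p below 0.05, DESeq2 called 0 and limma on per-cell means called 2. With 2 B220+ and 3 B220- libraries this does not show that the differences were equal. The isotype changes of Ccr10, Tnfrsf17 and Slpi kept their direction in B220+ and B220- libraries alike. These genes are among the steepest called genes, which were picked for keeping the same direction in every library. Their shared direction was therefore set by the selection and is no test of B220.

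Markers of other cells were low in both classes. Summed T cell markers were at 0 to 32.1 CPM in IgG and 10.1 to 19.7 CPM in IgA sums. Among the IgG and IgA sums, Cd3e (13 UMIs) and Nkg7 (13 UMIs) were found only in the IgG cells of B220+2NBDG-. IgM cells of that library held 1.08 CPM of Cd3e and 1.34 CPM of Nkg7. Without cells holding at least 2 T cell marker UMIs 298 and 269 genes were called for isotype. The NK list was at 3.18 to 12.6 CPM in IgG and 19.1 to 68.6 CPM in IgA sums, the latter through the cytotoxic genes Gzma and Prf1. Its receptors Ncr1, Klrb1c and Klra8 had 0 UMIs in both. Its members Klrk1 and Eomes went the other way, with 8 and 6 UMIs in IgG cells and 0 in IgA cells. The plasmacytoid dendritic cell list was at 1054 to 9064 CPM in IgG and 1009 to 1193 CPM in IgA sums, a range carried by Ly6c2, and its defining marker Siglech had 1 UMI in IgG and 0 in IgA cells. Summed markers stayed at or below 47.1 CPM for macrophages, 14.7 CPM for dendritic cells, 8.41 CPM for neutrophils, 19.1 CPM for erythroid cells, 8.06 CPM for megakaryocytes and 36.9 CPM for stromal or endothelial cells, and were 0 for mast cells.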

How the data were processed

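The authors deposited raw UMI counts per gene and cell barcode, made with Cell Ranger 2.1 on GRCm38 per the submitters' processing notes from 10x 3' version 2 libraries. The sources used here do not give the annotation or the barcode filter. The 5 tables hold 33456 genes and 5476 barcodes, 11 of which occur in more than 1 library; 32739 gene identifiers matched GENCODE M21. Every cell was kept. Members and gene lists were chosen with earlier results of these data known.

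UMIs were summed per library and isotype, leaving out 266 immunoglobulin genes and 18 others in their loci. The sums were tested in edgeR 4.0.16 (R 4.3.3; TMM, filterByExpr, quasi-likelihood, library as a block), with terms for isotype by 2NBDG and isotype by B220. The library pairs both sums because they share mice and tube. Their deviations correlated at 0.656, 0.216, 0.256, 0.422 and 0.529, each above the same library's other pairings (at most 0.266, 0.0762, 0.0854, 0.215 and 0.262). On simulated data for IgG against IgA (4247 genes), 80 of 88 2-fold and 37 of 92 1.5-fold changes were called, with 2 false calls. Per-cell measures used exact sign flips over 5 libraries, at 1000 non-immunoglobulin UMIs where thinned.

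Named genes were the 15 steepest and 5 most abundant called genes per direction with 1 direction in all 5 libraries, called list members, a fixed set, and 10 per interaction. Alternatives used DESeq2 1.42.0, limma 3.58.1 (log2 of CPM plus 5), other scalings, filters and cell sets, Scrublet (scanpy 1.11.5; doublets otherwise kept) and each library left out. Promoters come from RefSeq (GRCm38.p6); 3516 of 4421 tested genes matched.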

Additional observations from a re-analysis of the deposited data

Results flagged for a closer look

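Among 43 sets of 5 library ratios checked for a library far from the rest (Dixon's critical value 0.71), 3 had one, and chance gives about 1 in 20. The log2 ratio of IgG over IgA was 3.66 for Lipc in splenic B220-2NBDG+, the highest of its 5 libraries. It was 1.33 for Cd74 and 1.64 for B2m in bone marrow, again the highest of 5.

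The IgG minus IgA difference itself differed between 2NBDG+ and 2NBDG- libraries for 84 genes in edgeR's interaction test; the 10 with the smallest p are given here. It was more positive in 2NBDG+ for Crip1 (2.52), Klf2 (2.42), Pycard (2.34), S100a10 (1.69), Prr13 (1.39) and Cd48 (1.36), and more negative for Cyp4f18 (-2.69), Grn (-2.66), Jun (-1.88) and Ly6a (-1.47). Without B220+2NBDG-, S100a10 was 1.18 (adjusted p = 0.0781), Prr13 0.99 (adjusted p = 0.197) and Klf2 1.75 (adjusted p = 0.0217). Leaving out either 2NBDG- library leaves 1 in that arm, which is assumed to vary like the other libraries.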

How the results depend on the processing

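No gene called for isotype changed sign under any of the alternatives run. Of the 180 named genes called, 69 stayed called under all of them, 102 lost the call without the library block and 58 when 1 library was left out; of the 30 steepest, 28 stayed called throughout. Counts higher and lower in IgG cells were 511 and 134 with library size alone, 476 and 112 with limma on means over cells, 168 and 128 with DESeq2, 200 and 149 with all UMIs as library size, 417 and 417 with no count filter, and 104 and 92 with no replicate block, that is, without pairing by library. Leaving out 1 library gave 220 to 253 and 166 to 290. For 2NBDG the larger and smaller counts were 114 and 19 with library size alone, 344 and 13 with all UMIs (which moved the median of all genes by 0.450), 14 and 10 with DESeq2, 63 and 51 with no filter, 35 and 23 at 90% dominance, 27 and 18 with thinned sums, 113 and 22 with limma, and 7 to 79 and 10 to 52 with 1 library left out. Without B220+2NBDG-, 16 of the 84 calls remained and 1 gene changed sign. For B220 they were 1 and 0 with all UMIs, 11 and 7 with no filter, 2 and 0 with limma, and 0 to 6 and 0 to 9 with 1 library left out. The difference in median non-immunoglobulin UMIs changed sign at 90% dominance (-51.1), and ranged from -191 to 196 with 1 library left out (-22.9 without B220+2NBDG-, -191 without bone marrow). The cause of these shifts was not tested. Depth limits the smallest sums most: genes under about 10 CPM there rest on 3 or fewer UMIs.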

Other observations

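Some genes below the count filter were uneven between the classes and were not tested; they were picked after their values were seen. Gzma, a granzyme of cytotoxic lymphocytes, was at 46.6, 46.3, 22.5, 19.2 and 9.37 CPM in IgA cells and 0.803, 3.18, 3.07, 2.01 and 0 CPM in IgG cells. The pore-forming gene Prf1 was at 9.81, 22.3, 20.5, 1.01 and 9.69 CPM in IgA cells and 0.401, 0, 7.67, 2.01 and 3.36 CPM in IgG cells. Cd4 was at 2.45, 15.4, 14.3, 6.07 and 15.2 CPM in IgA cells and 0, 0, 0.383, 2.01 and 0 CPM in IgG cells. Other T cell markers varied. The T cell receptor gene Trac and Cd8a had 0 UMIs in both classes. The receptor gene Trbc2 had 17 UMIs in IgG and 1 in IgA cells, Cd3g 15 and 6, and Lck 21 and 4. Tcf7 had 5 in IgG and 11 in IgA cells, and Cd8b1 2 and 3. Gzma and Cd4 were higher in IgA cells of every library, and Prf1 in 4 of 5. In B220+2NBDG- the order of Cd4 rested on 1 UMI in IgA cells against 0 in IgG cells. Zbtb32, a repressor known from B and plasma cells, held 8 and 9 UMIs in IgA cells of the 2NBDG- libraries and 0 in the other 3, against 0 or 1 UMI in each IgG sum. Cxcr4, the receptor that holds plasma cells in bone marrow, was at 4.42, 9.53, 10.7, 14.1 and 10.1 CPM in IgG cells and 4.91, 1.72, 4.1, 3.04 and 1.94 CPM in IgA cells.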
